A study of Homo sapiens with 6 samples.

Results

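Expression of 10 genes of the Notch pathway was followed in human fibroblasts with inducible oncogenic Ras, depleted or not of the long noncoding RNA sin-lncRNA. The genes were the receptors NOTCH1, NOTCH2 and NOTCH3, the ligands JAG1, JAG2 and DLL1, the DNA-binding factor RBPJ, and the target genes HES1, HEY1 and HEYL. The members were chosen by gene name, and all 10 were found among the 57819 genes of the deposited table (JAG1 under 2 gene IDs, of which the protein-coding one was used). All 6 libraries came from IMR90 ER:Ras cells given 200 nM 4-hydroxytamoxifen (4OHT) for 3 days. IMR90 cells are human lung fibroblasts, and in ER:Ras an estrogen receptor domain is joined to oncogenic Ras, which 4OHT then activates. In 3 libraries the cells had received a scrambled control siRNA and in 3 an siRNA against sin-lncRNA, and polyA RNA was sequenced. Both groups therefore carry ER:Ras and were exposed to 4OHT, and cells without 4OHT were not analysed here. Whether the cells were senescent was not assessed. The labels do not say whether the 3 libraries of a group came from separate cultures, so p-values measure the spread between these libraries, which may be technical.

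Notch receptors are single-pass membrane proteins that are switched on by ligands of the Jagged and Delta families on a neighbouring cell. Ligand binding allows ADAM proteases and then the gamma-secretase complex to cut the receptor, and the freed intracellular part joins RBPJ and a Mastermind coactivator on DNA to switch on genes of the HES and HEY families, which encode transcriptional repressors. In Ras-induced senescence of fibroblasts, Notch activity is known to tilt the secretome between a TGF-beta and matrix programme and an inflammatory cytokine programme.

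RBPJ binds DNA at sites built around TGGGAA, and promoters of target genes often carry it. The bases just upstream of the RefSeq starts of HES1 and HEYL, 2 target genes, and of the second listed start of RBPJ itself are shown because these 3 are the members with the word in a listed window (GRCh38.p14, 250 bases each, ending at the base before the start, written in the direction of transcription, at chr3:194135898-194136147 on the plus strand, chr1:39639644-39639893 on the minus strand and chr4:26319496-26319745 on the plus strand). Capitals mark TGGGAA or its reverse complement TTCCCA.
HES1: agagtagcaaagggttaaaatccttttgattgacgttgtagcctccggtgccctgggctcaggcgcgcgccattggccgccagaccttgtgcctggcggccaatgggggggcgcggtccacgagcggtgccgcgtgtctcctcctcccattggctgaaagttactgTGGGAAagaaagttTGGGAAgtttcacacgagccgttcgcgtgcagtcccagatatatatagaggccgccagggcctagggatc
HEYL: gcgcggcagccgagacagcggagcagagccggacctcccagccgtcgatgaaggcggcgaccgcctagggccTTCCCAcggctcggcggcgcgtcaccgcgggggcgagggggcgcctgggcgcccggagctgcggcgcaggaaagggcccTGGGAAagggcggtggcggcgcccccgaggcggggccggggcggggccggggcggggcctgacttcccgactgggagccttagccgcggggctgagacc
RBPJ: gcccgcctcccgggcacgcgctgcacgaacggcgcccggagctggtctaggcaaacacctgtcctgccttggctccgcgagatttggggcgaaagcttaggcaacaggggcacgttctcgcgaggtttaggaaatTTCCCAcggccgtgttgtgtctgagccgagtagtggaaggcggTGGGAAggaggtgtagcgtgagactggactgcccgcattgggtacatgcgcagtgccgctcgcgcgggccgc
HES1 had the word at -84 to -79 and again at -70 to -65, both on the gene's own strand. HEYL had it at -99 to -94 on its own strand and at -178 to -173 on the other. The RBPJ window had it at -72 to -67 on its own strand and at -115 to -110 on the other. Of 8 members with a listed promoter, 3 held TGGGAA in a window, against 24.6% of 27305 genes in the RefSeq table (20.8% of its 35116 promoters). HEY1 and DLL1 had no listed promoter and were not searched. With the longer word GTGGGAA, which contains the shorter one, the same 3 members matched, against 6.69% of genes (5.43% of promoters). RBPJ has 5 listed promoters, which gives it more windows in which to match. A match is a description of these letters and was not tested as a binding site.

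The targeted lncRNA was checked first. It stood at 3.70, 4.73 and 4.09 RPM (recovered reads scaled to 1000000 of the effective library size) in control replicates 1, 2 and 3 and at 0.493, 0.640 and 0.534 RPM in knockdown replicates 1, 2 and 3, a log2 fold change of -2.86 (SE 0.18; limma with Benjamini-Hochberg, adjusted p = 7.9e-07). Its locus lies within FAM65C on the opposite strand, and as the strand setting of the counting is not given in the sources used here, reads of the pair may not be separable. Libraries held 30271192 to 50913672 reads in genes in controls and 22117324 to 27882280 in knockdowns, and no knockdown library reached the depth of any control. Fibroblast markers were abundant, with summed levels of 13710 to 14690 RPM in controls and 8760 to 9094 RPM in knockdowns. COL1A1, COL1A2 and VIM made up most of this sum. All 7 were tested and called (limma, adjusted p under 0.05), against 41.0% of all genes tested. In knockdowns 3 were higher (THY1, LUM and FAP) and 4 lower (COL1A1, COL1A2, VIM and PDGFRB). Summed levels of the other lists were 6.99 to 7.90 RPM in controls and 7.91 to 8.84 RPM in knockdowns for 4 endothelial markers, 4.196 to 6.608 and 2.02 to 2.74 RPM for 4 epithelial markers, 0.1665 to 0.3576 and 0.224 to 0.499 RPM for 4 immune markers, and 26.9 to 27.8 and 25.7 to 26.4 RPM for 4 smooth muscle and pericyte markers. Within these lists RGS5 (log2 fold change 1.17) and VWF (0.42) rose, and KRT19 (-1.31) and CNN1 (-0.56) fell (limma, adjusted p under 0.05). KRT5 was at 0 reads in every library, and CDH5, CDH1, PTPRC and CD3E had at most 3 reads in each. The part of these marker differences in the results below was not tested. In bulk RNA, fewer cells of a type and less RNA per cell cannot be told apart.

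Of the 10 Notch genes, 3 fell in the knockdown and 1 rose, while 6 did not pass the test (limma, Benjamini-Hochberg adjusted p under 0.05). RBPJ fell to well under its control level, the receptor NOTCH2 and the ligand JAG1 fell by smaller amounts, and HEYL, a target gene with few reads, rose. All 10 genes passed the filter on low values (a mean over the 6 libraries of 10 or more normalized reads). Among all 19048 genes tested, 41.0% were called, 17.5% as higher and 23.5% as lower, so 4 called genes of 10 is a share near the background. The groups did not overlap in 4 members, the same as those called, against 51.1% of all genes. The median log2 fold change was -0.03 over the 10 members and -0.04 over all genes tested.

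**Figure D1:**
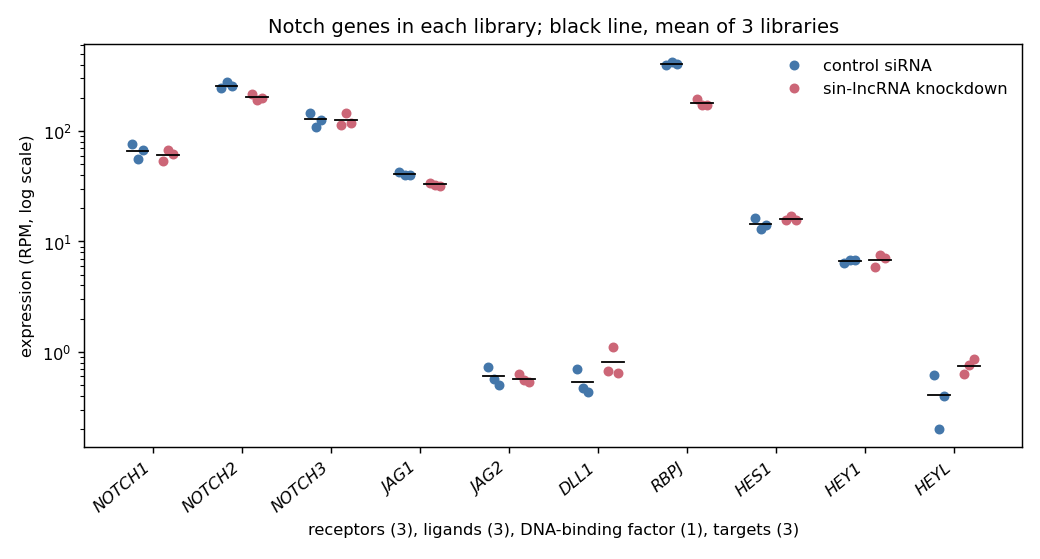
Expression of the 10 Notch genes in RPM on a log axis. Each point is a library, blue for control siRNA and red for sin-lncRNA knockdown, and each black line is the mean of 3 libraries. RBPJ went from a mean of 405.2 to 179.5 RPM, and its groups stand furthest apart; NOTCH1, NOTCH3, JAG2, DLL1, HES1 and HEY1 overlap between groups.

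Levels were compared roughly between genes after division by exon length, taken as all exons of a gene merged. The annotation release used for counting is not given, so these lengths may differ from those counted. How far the order of genes close in level depends on the length used or on GC content was not tested. As RPKM (RPM per kilobase of exon in GENCODE 29), RBPJ was the most abundant member in controls at 43.8 ± 1.4 (SD, n = 3). NOTCH2 followed at 15.4 RPKM and NOTCH3 at 13.6 RPKM, and the ranges of these receptors overlapped (14.6 to 16.5 and 11.6 to 15.7). HES1 at 7.02 RPKM and NOTCH1 at 6.41 RPKM overlapped as well. JAG1 at 4.43 RPKM and HEY1 at 2.06 RPKM each stood apart from their neighbours in the order. DLL1, HEYL and JAG2 were the 3 lowest, at 0.166, 0.110 and 0.0936 RPKM. The range of HEYL overlapped those of both DLL1 and JAG2, which stood apart from each other. In knockdowns RBPJ was still the highest at 19.4 RPKM, followed by NOTCH3 at 13.4 and NOTCH2 at 12.1, whose ranges again overlapped. JAG1 was thus the highest of the 3 ligands, and the mean log2 ratio of JAG1 to JAG2 per length was 5.58 ± 0.24 in controls and 5.31 ± 0.07 in knockdowns. That difference of -0.27 did not pass the exact two-sided permutation test (p = 0.3, where 0.1 is the smallest p that 3 libraries against 3 allow), and it was -0.40 without control replicate 1 and -0.16 without control replicate 3.

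Among the receptors, NOTCH2 (hg19 chr1:120454176-120612240, minus strand) fell. It stood at 245, 277 and 254 RPM in control replicates 1, 2 and 3 and at 217, 191 and 201 RPM in knockdown replicates 1, 2 and 3. Every knockdown library was below every control. The log2 fold change was -0.35 (SE 0.06; adjusted p = 0.00074, limma with Benjamini-Hochberg), and the knockdown mean was 78.5% of the control mean. NOTCH2 has a partial copy in the table, NOTCH2NL, which stood at 11.96 ± 1.12 RPM in controls and 12.36 ± 0.98 RPM in knockdowns (SD, n = 3). Its log2 fold change of 0.05 (SE 0.09) did not pass the test in limma (adjusted p = 0.70). How reads shared between NOTCH2 and this copy were counted is not given in the sources used here.

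NOTCH1, the receptor tied to the secretome switch, stood at 76.8, 55.3 and 67.5 RPM in the controls and at 53.3, 67.3 and 61.8 RPM in the knockdowns. Control replicate 1 was the highest and knockdown replicate 1 the lowest, and the groups overlapped. Its log2 fold change was -0.12 (SE 0.11; 95% interval -0.37 to 0.12; limma adjusted p = 0.41). Without control replicate 2, the lowest control, it was -0.25 and passed the threshold (limma adjusted p = 0.037), and without control replicate 1 it was -0.01. NOTCH3, which is prominent in vascular smooth muscle and pericytes, stood at 147, 109 and 127 RPM in controls and 114, 145 and 118 RPM in knockdowns. It too was highest in control replicate 1 and lowest in control replicate 2, and the groups overlapped. Its log2 fold change was -0.02 (SE 0.11; 95% interval -0.26 to 0.22; limma adjusted p = 0.90). The balance of NOTCH3 to NOTCH1 within each library, as a log2 ratio per length, was 1.09 ± 0.03 in controls and 1.19 ± 0.09 in knockdowns (SD, n = 3; exact two-sided permutation p = 0.3).

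The spread of NOTCH1 and NOTCH3 within groups moved with GC content. Their transcripts hold 62.9% and 63.1% G and C, above those of 94.5% and 94.65% of genes tested, whereas NOTCH2 and JAG1 hold 49.4% and 49.6%. In the 1855 genes with at least 60.6% GC, the richest group,, the median deviation from the group mean was 0.13 in control replicate 1, -0.16 in control replicate 2 and 0.04 in control replicate 3 on the log2 scale. In knockdown replicates 1, 2 and 3 it was -0.14, 0.12 and 0.02. NOTCH1 and NOTCH3 thus shared with the GC-rich genes which library was highest and which lowest in each group. With the GC and length trend taken out of each library, which removes such a pattern by construction, the range of NOTCH1 over the controls went from 0.47 to 0.18 and that of NOTCH3 from 0.43 to 0.14 (log2). The log2 fold changes were then -0.02 for NOTCH1 and 0.09 for NOTCH3, neither of them called. The 5 other genes whose centred log2 values lay closest to those of NOTCH1 over the 6 libraries, by root mean square distance among 15114 genes, were HSPB1P1 (0.010), ZNF703 (0.022), MFSD12 (0.024), MYPOP (0.025) and RFX1 (0.029). Their transcripts hold 63.3% to 67.8% G and C. HSPB1P1 is by its name a pseudogene, and whether reads of its parent gene were counted in it was not tested. NOTCH3 ranked 170 in that order and NOTCH2 ranked 10500.

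**Figure D2:**
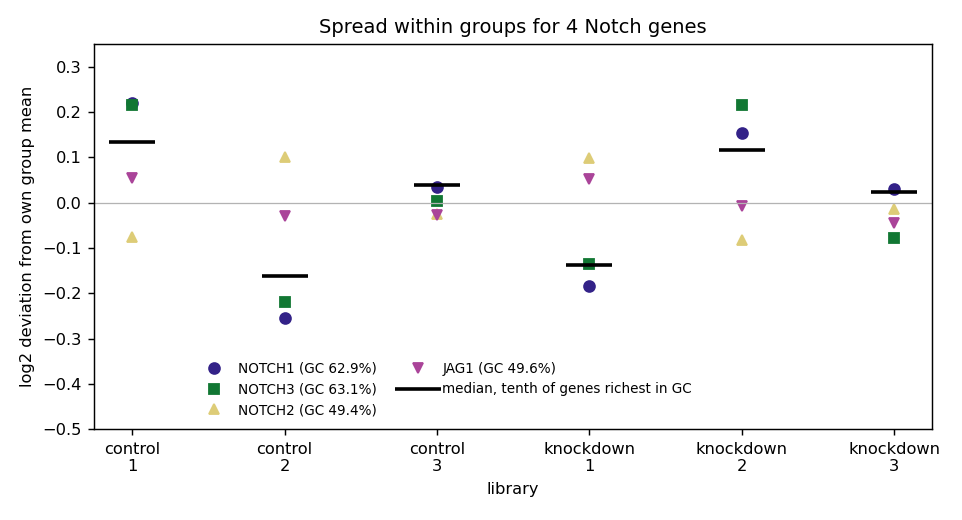
Deviation of each library from the mean of its own group, in log2 units, for NOTCH1, NOTCH3, NOTCH2 and JAG1, with black bars for the median of the 1855 genes richest in GC. NOTCH1 and NOTCH3 lie on the same side of 0 as the black bars in control replicates 1 and 2 and knockdown replicates 1 and 2, where the bars stand at 0.13, -0.16, -0.14 and 0.12; NOTCH2 lies on the other side there.

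Among the ligands, JAG1 (hg19 chr20:10618332-10654694, minus strand) fell. It stood at 42.8, 40.4 and 40.4 RPM in controls and at 34.2, 32.8 and 32.0 RPM in knockdowns, and the groups did not overlap. The log2 fold change was -0.32 (SE 0.05; adjusted p = 0.00079, limma with Benjamini-Hochberg), close to that of NOTCH2. The other row under the name JAG1, a processed transcript inside the gene, had 0 to 2 reads per library. JAG2 and DLL1 had few reads, JAG2 17 to 25 in each control and 13 to 15 in each knockdown, DLL1 14 to 24 and 15 to 26. JAG2 went from 0.599 ± 0.122 to 0.572 ± 0.049 RPM (SD, n = 3), with a log2 fold change of -0.03 and a 95% interval of -0.59 to 0.52 that leaves room for a change as large as that of JAG1. DLL1 stood at 0.705, 0.466 and 0.437 RPM in controls and 0.672, 1.11 and 0.641 RPM in knockdowns. Knockdown replicate 2 was the highest, and the groups overlapped. The log2 fold change of 0.58 (SE 0.29) did not pass the test in limma (adjusted p = 0.14), and it was 0.33 without knockdown replicate 2 and 0.32 with all libraries thinned to equal depth.

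RBPJ, which carries the Notch signal to DNA and acts as a repressor without it, had the largest change of the 10. It stood at 394, 419 and 402 RPM in control replicates 1, 2 and 3 and at 196, 171 and 171 RPM in knockdown replicates 1, 2 and 3. The knockdown mean was 44.3% of the control mean, with 12592 to 20242 reads behind each control value and 4014 to 4808 behind each knockdown value. This made a log2 fold change of -1.18 (SE 0.06; limma with Benjamini-Hochberg, adjusted p = 1.4e-07), and 114 of the 19048 genes tested (0.598%) had a change as low or lower. The gene spans chr4:26165077-26436541 on the plus strand (hg19, the build in the submitters' processing notes), and no other gene of the table overlaps it.

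RBPJ has processed pseudogenes, near-identical copies of its mRNA elsewhere in the genome, and 4 of them passed the filter on low values. RBPJP6 went from 6.11 ± 0.56 to 2.54 ± 0.57 RPM (SD, n = 3), which is a log2 fold change of -1.28. RBPJP7, RBPJP5 and RBPJP2 had log2 fold changes of -1.20, -1.05 and -0.96. All 4 fell (limma adjusted p from 6.4e-05 to 0.00037), and the log2 fold change of RBPJ lies within their range. Summed over the 4, they held 24.4 RPM in controls and 11.3 RPM in knockdowns, against 405.2 and 179.5 RPM for RBPJ. Reads of the parent gene and of its copies cannot be told apart here, so the pseudogene values are uncertain and are no separate measurement of RBPJ.

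**Figure D3:**
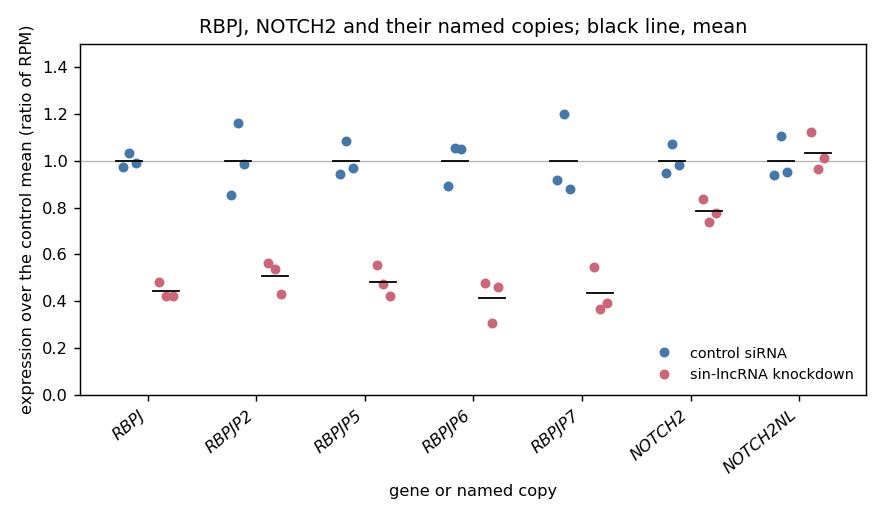
Expression of RBPJ, 4 of its processed pseudogenes, NOTCH2 and its partial copy NOTCH2NL, as the ratio of RPM to the control mean of the same gene. Points are libraries and black lines are group means. RBPJ and its 4 pseudogenes lie far below 1 in every knockdown library, NOTCH2 at 0.785 on average, and NOTCH2NL overlaps between the groups.

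Of the 3 target genes, 1 rose and 2 did not pass the test, where 41.0% of all genes tested were called. HES1, a repressor of many developmental genes and the most abundant of the 3 targets, stood at 16.21, 12.99 and 14.23 RPM in controls and at 15.5, 16.9 and 15.6 RPM in knockdowns. Control replicate 1 lay among the knockdowns, and the log2 fold change was 0.15 (SE 0.09; 95% interval -0.04 to 0.34; limma adjusted p = 0.19). Without control replicate 1 it was 0.23 and passed the threshold (limma adjusted p = 0.039), and it also passed with the GC and length trend removed (0.23, limma adjusted p = 0.038), though not when a replicate block was added to that correction (0.061). HEY1, a related repressor known from endothelial and cardiac development, stood at 6.40, 6.73 and 6.86 RPM in controls and 5.83, 7.56 and 7.05 RPM in knockdowns. Its knockdown libraries lay on both sides of the controls (log2 fold change 0.03, SE 0.11, 95% interval -0.21 to 0.26).

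HEYL (hg19 chr1:40089825-40105617, minus strand), the third target, rose from 0.617, 0.200 and 0.397 RPM in controls to 0.628, 0.768 and 0.855 RPM in knockdowns. Every knockdown library was above every control, but the closest pair, control replicate 1 and knockdown replicate 1, differed by little. Few reads lie behind these values, 6 to 21 in each control and 14 to 24 in each knockdown. Its log2 fold change was 1.00 (SE 0.37; adjusted p = 0.0495, limma with Benjamini-Hochberg), just inside the threshold. Without control replicate 2, the lowest library, it was 0.59 and was not called (limma adjusted p = 0.15), and the call was lost as well without control replicate 3 (limma adjusted p = 0.0975) or without knockdown replicates 1, 2 or 3 (limma adjusted p 0.0635, 0.106 and 0.146, in that order).

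Beyond the 10 members, 53 other genes of the pathway were listed, and 47 of them passed the filter on low values. Of these, 14 rose and 11 fell (limma, adjusted p under 0.05), or 53.2% against 41.0% of all genes tested, with a median log2 fold change of 0.07 against -0.04. HES5 and HEY2 were at 0 reads in every library, and 0 reads still leave room for up to 3 reads per library, which is 0.0596 to 0.134 RPM. MFNG, DTX1, HES2 and NRARP were below the filter.

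Among the 5 other receptors and ligands, 0 rose and 2 fell (40% called, against 41.0% of all genes tested). The Delta-like ligand DLL4 stood at 5.84, 5.76 and 6.82 RPM in controls and 2.42, 2.05 and 2.17 RPM in knockdowns. The groups were far apart, and the log2 fold change of -1.46 (SE 0.12; limma adjusted p = 6.5e-06) was larger than that of any of the 10 members. Per length, DLL4 stood at 1.29 RPKM in controls, below JAG1 at 4.43 RPKM. The other to fall was DLL3, a ligand-like protein known to inhibit Notch within the same cell, which is named after its values were seen and had 7 to 28 reads per library (log2 fold change -0.79, SE 0.29; limma adjusted p = 0.048). Its call was lost in 12 of the 17 alternative fits that tested it (-0.97 to -0.43), among them those without any 1 of the controls and without knockdown replicate 2 or 3. NOTCH4 (log2 fold change -0.39, SE 0.28) and the noncanonical ligands DLK1 (0.16, SE 0.19) and DLK2 (0.60, SE 0.24) did not pass the test.

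The enzymes that modify and cut the receptor changed in both directions: of 12 tested, 5 rose and 3 fell (66.7% called, against 17.5% higher and 23.5% lower among all genes). Both sheddases of the list, ADAM17 and ADAM10, were higher. ADAM17 stood at 28.8, 30.0 and 27.3 RPM in controls and 59.2, 57.6 and 58.3 RPM in knockdowns, a log2 fold change of 1.02 (SE 0.05; limma adjusted p = 2.9e-07). ADAM10 stood at 197.7, 196.5 and 192.1 RPM in controls and 327, 314 and 324 RPM in knockdowns, a log2 fold change of 0.72 (SE 0.04; limma adjusted p = 3.9e-07). The groups of both sheddases were separated by far more than the spread between libraries. In the gamma-secretase complex, NCSTN, which helps hold the substrate, rose by 0.42 and APH1B, a scaffold subunit, by 0.27 on the log2 scale, while the alternative scaffold subunit APH1A had a log2 fold change of -0.36. PSEN2, a catalytic subunit (log2 fold change 0.17; limma adjusted p = 0.051), and the small subunit PSENEN (0.05; limma adjusted p = 0.55) did not pass. FURIN, the convertase that cuts the receptor on its way to the surface, went from 258 ± 12 to 168 ± 11 RPM (SD, n = 3), which is a log2 fold change of -0.62 (SE 0.05; limma adjusted p = 9.7e-06). The 2 enzymes that start sugar chains on the receptor's EGF repeats went opposite ways: POFUT1, which adds fucose, had a log2 fold change of -0.42 and POGLUT1, which adds glucose, one of 0.34. Fringe enzymes extend the fucose, and LFNG (0.11, SE 0.13) and RFNG (-0.12, SE 0.11) did not pass.

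Of 12 ubiquitin ligases and endocytic regulators tested, 2 rose and 2 fell, or 33.3% against 41.0% of all genes tested. FBXW7, the ligase subunit that marks the active intracellular receptor for degradation, went from 15.8 ± 0.5 to 24.4 ± 0.5 RPM (SD, n = 3), which is a log2 fold change of 0.63 (SE 0.06; limma adjusted p = 1.7e-05). DTX3L, a member of the Deltex family, rose as well (log2 fold change 0.51, SE 0.08). The 2 that fell were NUMB (log2 fold change -0.375, SE 0.04) and ITCH (-0.35, SE 0.05), which restrain Notch at the membrane and in endosomes. MIB1 (0.05, SE 0.05), the ligase that lets ligands pull on the receptor, did not pass.

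Of 7 nuclear coactivators 3 rose and 1 fell (57.1% called), and of 8 corepressors 4 rose and 1 fell (62.5%), against 17.5% higher and 23.5% lower among all genes tested. These short lists were not tested against all genes. MAML3, a Mastermind coactivator of the Notch and RBPJ complex, went from 35.8 ± 1.4 to 59.1 ± 2.1 RPM (SD, n = 3), which is a log2 fold change of 0.72 (SE 0.05; limma adjusted p = 2.6e-06). Its relatives MAML1 (log2 fold change -0.08; not called, limma adjusted p = 0.23) and MAML2 (-0.18; limma adjusted p = 0.022) were not higher, and MAML2 is the coactivator that fell, a call lost in 6 of 18 alternative fits, among them those without control replicate 2 or knockdown replicate 2 or 3. SPEN, a corepressor that binds RBPJ, rose by 0.54 (SE 0.06) and TLE4, a Groucho-type corepressor used by HES proteins, by 0.39 (SE 0.06) on the log2 scale. Its relatives differed: TLE3 rose (log2 fold change 0.30, limma adjusted p = 0.0061) and TLE1 fell (-0.33, limma adjusted p = 0.0057). TLE2 (0.25, SE 0.29) did not pass. In the last group, 3 of 7 genes were tested and 2 fell (66.7% called, against 41.0% of all genes tested). These were HES6 (log2 fold change -0.90, SE 0.19; limma adjusted p = 0.0030) and HES7 (-0.88, SE 0.22; limma adjusted p = 0.0085), 2 further HES family genes with 19 to 98 reads per library, named after their values were seen.

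**Figure D4:**
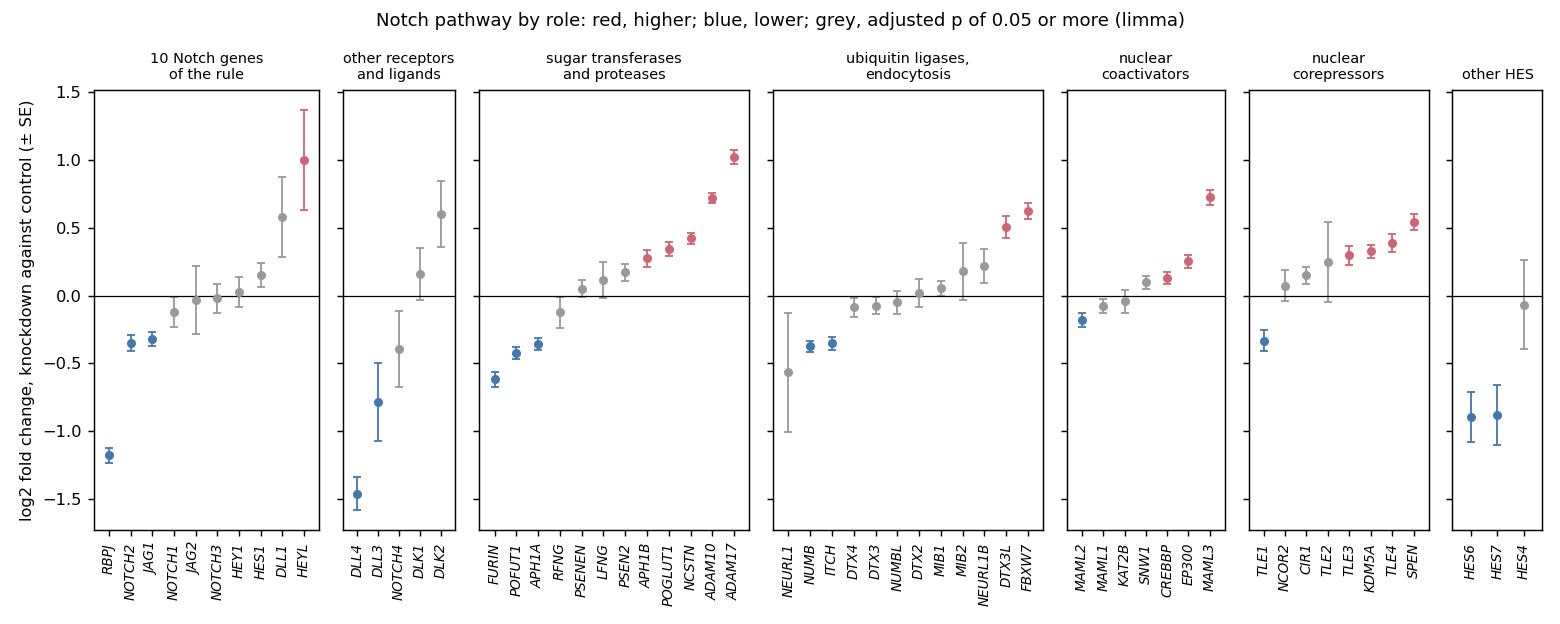
Log2 fold change of knockdown against control for the 10 Notch genes and the 47 other pathway genes tested, by role, with bars of 1 SE. Red points rose, blue points fell and grey points did not pass an adjusted p of 0.05 in limma. DLL4 at -1.46 and RBPJ at -1.18 are the lowest points, and ADAM17 at 1.02 and HEYL at 1.00 the highest, HEYL with a far wider bar.

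The secretome that Notch is known to set was read from 2 short lists of 14 genes in all (10 called, or 71.4% against 41.0% of all genes), chosen with earlier results of these data known. On the cytokine side, 1 of 6 genes rose and 2 fell (50% called). IL1B, an inflammatory cytokine, stood at 15.4, 21.1 and 19.5 RPM in controls and 11.0, 11.1 and 11.0 RPM in knockdowns (log2 fold change -0.74, SE 0.10; limma adjusted p = 0.00023). IL1A had a log2 fold change of -0.42 (limma adjusted p = 0.026) and CXCL8, listed as IL8, one of 0.34 (limma adjusted p = 0.013, and 0.0637 with eBayes without a trend). The IL1A call was lost with quantile normalization (limma adjusted p = 0.0512) and without control replicate 2 (limma adjusted p = 0.110) or knockdown replicate 3 (0.085). IL6 (0.25), CXCL1 (0.31) and CEBPB, a transcription factor of the cytokine programme (-0.09), did not pass. CXCL1 was 0.61 and called without control replicate 1 (limma adjusted p = 0.033) but 0.04 without control replicate 2 and 0.17 without knockdown replicate 3, and IL6 was 0.06 without knockdown replicate 2. CEBPB was -0.30 and called without control replicate 2 (limma adjusted p = 0.0099), 0.04 without control replicate 1, and 0.16 and called with the GC and length trend removed (limma adjusted p = 0.049).

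On the TGF-beta and matrix side, 5 of 8 genes rose and 2 fell (87.5% called, against 17.5% higher and 23.5% lower among all genes). TGFB2, a TGF-beta ligand, stood at 13.19, 12.99 and 13.59 RPM in controls and 29.6, 29.8 and 29.5 RPM in knockdowns, a log2 fold change of 1.16 (SE 0.06; limma adjusted p = 2.1e-07). TGFB1, the most abundant of the 3 TGF-beta ligands, stood at 237, 168 and 211 RPM in controls and 248, 317 and 297 RPM in knockdowns (log2 fold change 0.49, SE 0.12; limma adjusted p = 0.0057). The call was lost with eBayes without a trend (limma adjusted p = 0.0554) and with robust eBayes (0.0688). The gap between control replicate 1 and knockdown replicate 1 was small for TGFB1, unlike for TGFB2. TGFBI, a TGF-beta-induced matrix protein (0.93), CTGF, now CCN2, a matricellular protein (0.65), and COL3A1 (0.38) also rose, on the log2 fold change scale. COL1A1, a chain of type I collagen, went the other way, from 6617 ± 460 to 3599 ± 223 RPM (SD, n = 3; log2 fold change -0.88, SE 0.06; limma adjusted p = 2.0e-06). The other chain, COL1A2, is outside this list but among the fibroblast markers, and it fell as well (log2 fold change -0.77; limma adjusted p = 3.8e-07). ACTA2, smooth muscle actin, was called at -0.13 (limma adjusted p = 0.047), and 12 of the 18 alternative fits did not call it. TGFB3 (-0.23, SE 0.14) did not pass. The 2 lists were not tested against each other.

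**Figure D5:**
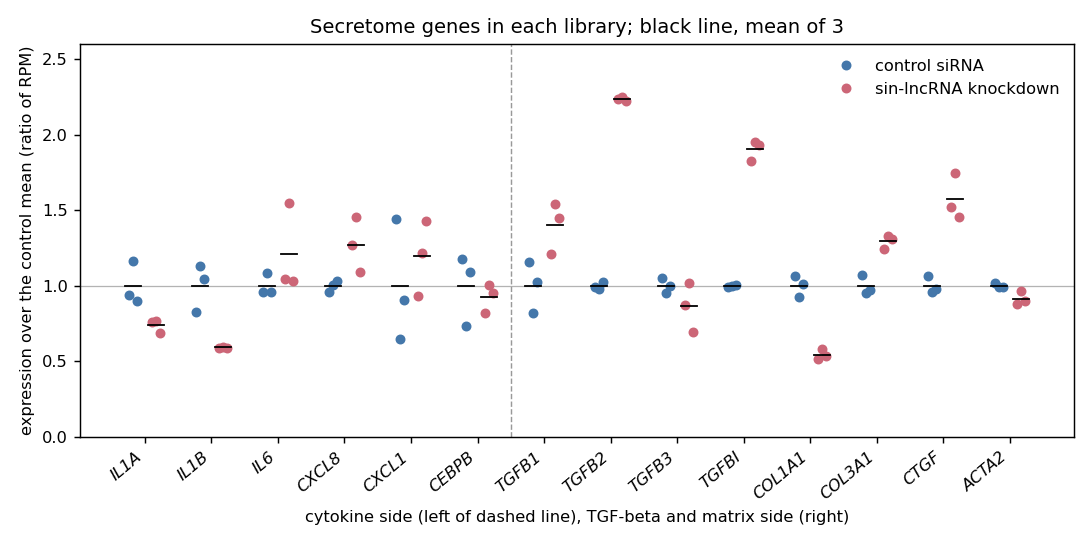
Expression of the 14 secretome genes as the ratio of RPM to the control mean of the same gene, with cytokine genes left of the dashed line and TGF-beta and matrix genes right of it. Points are libraries and black lines are group means. TGFB2 and TGFBI are well above 1 in all 3 knockdown libraries, while IL1B and COL1A1 are well below 1.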

How the data were processed

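PolyA RNA of 6 libraries, 3 per group, was counted per gene. Bowtie2, featureCounts and hg19 are named in the submitters' processing notes. Versions, annotation release and strand setting are not given in the sources used here. The authors deposited a table whose values are log2 of reads plus 0.5 scaled to 1000000 of an effective library size. This form was worked out from the values: undoing it gave whole numbers (within 0.01) for 100% of values. Reads were recovered this way, and RPM is recovered reads on the same scale without the offset.

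limma 3.58.1 (R 4.3.3; lmFit and eBayes with an intensity trend, group as the sole term, two-sided) was fitted on the deposited log2 values of the 19048 genes with a mean of at least 10 normalized reads. Benjamini-Hochberg adjustment ran over all of them, with calls at 0.05. The offset weighs on fold changes of genes with few reads, more so in the shallower knockdown libraries, and can move them either way. GENCODE 29 (matched by gene ID, 97.4% of genes tested) gave exon length and GC content. Counts of 19048 genes were simulated with 200 changed. Of log2 changes of 1, 99% were recovered in the correct direction, and of those of 0.5, 52%. Unchanged genes made up 5.62% of calls. The changed genes were drawn from those with a mean of at least 50 reads. Every gene had the same count dispersion, there was no GC trend, and far fewer genes changed than were called in the data. The shares therefore do not carry over to genes with few reads, such as HEYL, DLL1 and JAG2, or to the calls reported here. The members and gene lists were chosen with earlier results of these data known. Text names all 10 members, the 15 largest called changes among other pathway genes with a mean of at least 50 reads and groups apart, all secretome genes, and the 5 genes closest to NOTCH1. Other genes named were chosen after their values were seen. From the lists, 2 genes were left out and are not reported here.

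Alternatives were filters, pseudocounts, quantile normalization, voom, thinning to equal depth, removal of a GC and length trend, other variance models, a replicate block and leaving out each library.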

Additional observations from a re-analysis of the deposited data

How the results depend on the processing

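Counts of called members ran from 3 to 5 over the 18 alternative fits, those of other pathway genes from 22 to 30 and those of secretome genes from 7 to 10. RBPJ (-1.283 to -1.145), NOTCH2 (-0.42 to -0.30), JAG1 (-0.35 to -0.28) and DLL4 (-1.53 to -1.33) kept direction and call in all 18 (log2 fold changes, limma). Of the 39 called genes that the text names from the lists, the RBPJ copies and the lncRNA (cell type markers, TLE1 and TLE3 aside), 32 kept both in every fit that tested them, and 0 reversed. Over all genes, 5803 to 7330 were called with a library left out and 561 with an added minimum of 1 in absolute log2 fold change, which lowers the count by construction.

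HEYL kept its direction but lost its call without a filter (1.00), with a pseudocount of 0.1 (1.02), with every library thinned (1.18), with eBayes without trend (1.00) and with the replicate block (1.00), and spanned 0.59 to 1.37 when 1 library was dropped (limma adjusted p over its alternatives 0.012 to 0.152). HES1 gained a call with the GC and length trend removed (0.23) and spanned 0.075 to 0.23 when 1 library was dropped. NOTCH1 ran from -0.25 to -0.013. Reversals were in genes not called in the reported fit: NOTCH3 was 0.0040 when thinned and 0.087 with the GC and length trend removed, with or without the replicate block, and -0.13 to 0.087 with a library left out. JAG2 was 0.092 with a pseudocount of 5, 0.0088 with voom and 0.12 with the GC and length trend removed, with or without the block, and -0.16 to 0.12 with a library left out. HEY1 was -0.015 when thinned and -0.053 to 0.13 with a library left out. CEBPB was 0.16 with the GC and length trend removed, with or without the block, and -0.30 to 0.043 when 1 library was dropped. For these changes the cause was not tested. At 6 to 26 reads per library for JAG2, DLL1 and HEYL, depth limits what could be detected.

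Libraries numbered 1, 2 and 3 had between-group correlations of -0.15, -0.18 and 0.07 in their deviations. The GC trend was not removed first, and it ran opposite ways in the 2 groups for replicates 1 and 2. The correlations therefore cannot show whether the libraries were paired by replicate. With the replicate block 6454 genes, 3 members, 22 other pathway genes and 9 secretome genes were called. The block gave 0.10 for the NOTCH3 to NOTCH1 ratio and -0.27 for JAG1 to JAG2 (exact sign permutation over 3 pairs, smallest p 0.25).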

Other observations

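Some pathway genes were too low to test and are given as reads per library. MFNG, a Fringe enzyme, had 0, 2 and 2 reads in control replicates 1, 2 and 3 and 4, 8 and 9 in knockdown replicates 1, 2 and 3. HES2 had 3, 1 and 3 reads in those controls and 4, 5 and 1 in those knockdowns. DTX1, a Deltex ligase and known Notch target, had 1 to 2 reads in controls and 2 to 8 in knockdowns. NRARP, a feedback inhibitor induced by Notch, had 11, 1 and 8 reads in controls and 4, 8 and 9 in knockdowns. Scaled for depth, NRARP stood at 0.323, 0.033 and 0.159 RPM in controls and 0.179, 0.342 and 0.321 RPM in knockdowns, and the groups overlapped. RBPJL, a relative of RBPJ, had at most 3 reads in any library. These genes were singled out after their values were seen.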
